A study of Mus musculus with 14 samples.

Results

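*Tbrg4*, which encodes the mitochondrial RNA-binding protein also called FASTKD4, and its 5 relatives *Fastk*, *Fastkd1*, *Fastkd2*, *Fastkd3* and *Fastkd5* form the FASTK gene family. The members were taken by gene symbol, and all 6 were found among the 20550 listed genes. Total RNA-seq was available for 2 samples from mice on day 10 of lactation (L10), both WT_wTbrg4, which carry 1 wild-type (wt) allele and 1 *Wap-Tbrg4* allele. In the *Wap-Tbrg4* allele, a CRISPR/Cas9 deletion in C57BL/6 zygotes removed the DNA from the start of *Wap* to the start of *Tbrg4*, with most of the *Wap* gene, joined what was left of the first exons and placed *Tbrg4* behind the *Wap* super-enhancer (SE) and promoter. The SE works in milk-producing cells, and the 5 relatives were not edited. RNA came from whole mammary tissue, the ages of the animals are not given in the sources used here, and reads from the wt and the fused allele are summed in *Tbrg4*. Replicates 1 and 2 are called mouse 1 and mouse 2. The sources used here do not say outright that they are separate animals, so the spread between them may be technical in part. No sample without the fused allele was measured here by RNA-seq. The relatives therefore serve as a scale for *Tbrg4* within each mouse, and the ratios below are not the change caused by the allele.

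Mitochondria transcribe their genome as long precursors, which are cut, modified, translated and degraded inside the organelle by proteins made in the cytosol. FASTK proteins share FAST domains and a RAP domain and act at different steps of this path. TBRG4 keeps several mitochondrial mRNAs stable, FASTKD5 is needed to mature mRNAs that no tRNA flanks, and FASTKD2 acts on the large ribosomal RNA of the mitochondrion. All are expressed in many tissues.

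In the wt allele *Tbrg4* RNA starts from its own promoter, and in the fused allele from the *Wap* promoter. These sequences are shown because they are the start regions that feed the *Tbrg4* signal in these mice. They were taken from RefSeq on GRCm38.p6, the assembly known as mm10, and both lie on the minus strand. The *Tbrg4* stretch of 154 bases is chr11:6626064-6626217. Capitals in it mark the cAMP response element (CRE), the sequence bound by CREB, which spans the transcriptional start site (TSS) at 6626067. The *Wap* stretch of 150 bases, chr11:6638650-6638799, ends 1 base before the TSS at 6638649. The *Wap* upstream stretch of 49 bases, chr11:6639190-6639238, has in capitals the nearest match to the STAT5 recognition sequence, centered 565 bp upstream of the *Wap* TSS.
*Tbrg4* promoter: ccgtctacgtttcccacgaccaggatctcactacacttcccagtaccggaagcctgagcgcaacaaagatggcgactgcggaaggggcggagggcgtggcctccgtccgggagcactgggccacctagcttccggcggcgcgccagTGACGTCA
*Wap* promoter: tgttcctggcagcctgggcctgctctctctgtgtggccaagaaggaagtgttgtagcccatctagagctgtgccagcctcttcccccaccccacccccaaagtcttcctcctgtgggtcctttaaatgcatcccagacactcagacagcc
*Wap* upstream: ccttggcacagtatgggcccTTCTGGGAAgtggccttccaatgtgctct

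The CRE (TGACGTCA, the same on both strands) was searched in windows from 250 bases before to 50 bases after the TSS of all genes, and 588 of 32851 windows (1.79%) held it. Of the 6 family members, *Tbrg4* had the full CRE and the others did not. The half-site TGACG, searched on both strands and contained in the full CRE, was found in 20.8% of windows. It occurred 2 times in *Tbrg4*, both within its CRE, at -7 in *Fastkd2* and at -240 in *Fastk*. The STAT5 sequence TTCNNNGAA was found in 8.30% of windows and once among the family, at -61 in *Fastk*. Such a match describes the letters of the reference and no binding was measured here.

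RefSeq places *Tbrg4* on chromosome 11 from 6615598 to 6626067 on the minus strand, with 13 separate exon blocks over its curated transcripts. On the same strand, *Fastk* lies on chromosome 5 from 24441040 to 24445235, *Fastkd1* on chromosome 2 from 69686820 to 69712606 and *Fastkd5* on chromosome 2 from 130613846 to 130630002. On the plus strand, *Fastkd2* lies on chromosome 1 from 63730625 to 63753385 and *Fastkd3* on chromosome 13 from 68582210 to 68592338. None of the 6 coding sequences had a near-identical copy elsewhere in the genome (95% identity or more across 50% or more of the sequence).

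The values are FPKM, fragments scaled to the length of the exons or introns and to the size of the library, with 1 decimal. They came from DESeq2, and how the library size was set is not given in the sources used here. Genes with a usable symbol and an exon FPKM averaging 1 or more are called expressed genes, and there were 9845. The 6 markers of secretory epithelium were all present, but 3 of them were more than 2-fold apart between the mice, in opposite directions. The exon FPKM of *Csn2*, a milk protein gene, was 108555 in mouse 1 and 481937 in mouse 2, whereas the keratin genes *Krt18* (145 and 57.6) and *Krt8* (31.4 and 14.6) were lower in mouse 2. Their part in the values below was not tested. The summed exon FPKM of the 5 myoepithelial markers was 112.6 and 71.3 and that of the 4 immune markers 8.8 and 7.0. Among the myoepithelial markers *Oxtr* was higher in mouse 2 (18.9 and 23.6), while *Myh11*, *Krt14* and *Krt5* were lower. The 4 adipocyte markers summed to 600.4 and 683.9, mostly from *Fabp4* (501.7 and 564), and the 3 endothelial markers to 46.1 and 40.1. *Acta2*, a defining myoepithelial marker, was listed at 0 in both mice while *Myh11*, another, had 69.2 and 38.8, so the 0 of *Acta2* is given as listed only. For values above 0 in whole tissue, fewer cells of a type and less RNA per cell cannot be told apart. Counts per gene were not used here and the depth is unknown. Among the 24 listed genes with under 200 bases of exon only 1 was above 0, so the worth of 1 read could not be read from low values.

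*Tbrg4* stood far above the 4 relatives with values above 0 in both mice. Its exon FPKM was 314.7 in mouse 1 and 291.5 in mouse 2, a mean of 303.1 ± 16.4 (SD, n = 2). Of the expressed genes, 55 were at least as high in both mice, and *Tbrg4* lay at the 99.3rd percentile. *Fastk*, whose mitochondrial form is required for the mRNA of a complex I subunit, had 9.6 and 5.4, a mean of 7.50 ± 2.97. *Fastkd2* had 3.8 and 4.9 (4.35 ± 0.778). Both mice gave the same order for these genes, and neither relative came near *Tbrg4* in either mouse.

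*Fastkd1*, which acts on the abundance of single mitochondrial mRNAs, had an exon FPKM of 2.0 in mouse 1 and 3.0 in mouse 2 (2.50 ± 0.707). *Fastkd3*, which also acts on mitochondrial mRNAs, had 1.4 and 2.5 (1.95 ± 0.778). These relatives were ordinary or low among expressed genes. *Fastk* lay at the 59.3rd percentile, *Fastkd2* at the 40.2nd, *Fastkd1* at the 22.2nd and *Fastkd3* at the 15.4th. The median expressed gene had an exon FPKM of 6.0 in mouse 1 and 5.3 in mouse 2.

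*Fastkd5* was listed at 0 for exons and for introns in both mice. All of its exon bases lie inside *Ubox5*, a ubiquitin ligase gene on the same strand of chromosome 2 from 130589996 to 130630038, and 7.47% of them are also exon bases of *Ubox5*. *Ubox5* itself had an exon FPKM of 0.9 and 0.5 and an intron FPKM listed at 0. Of 156 genes with at least 90% of their exon bases inside another listed gene of the same strand, 155 (99.4%) were listed at 0 exon FPKM in both mice, compared with 5840 of the other 19981 genes (29.2%). How the counting treated reads over overlapping genes is not given in the sources used here, and its part in the value of *Fastkd5* was not tested. The 0 is therefore given as listed and not as absence of *Fastkd5* RNA.

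**Figure D1:**
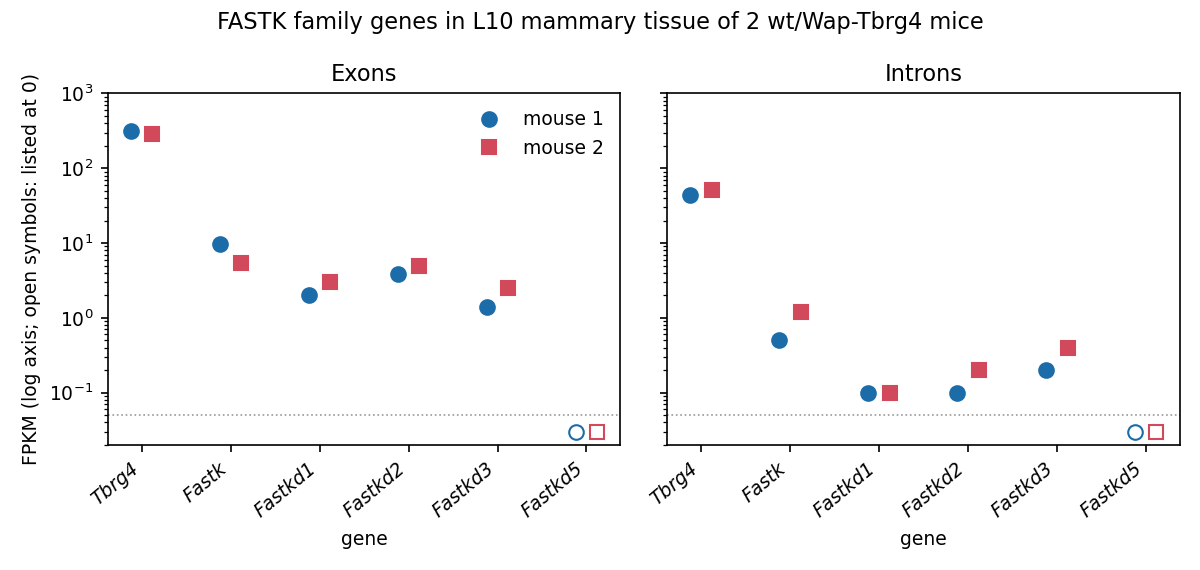
Exon (left) and intron (right) FPKM of the 6 FASTK family genes on a log axis, 1 point for each of the 2 wt/Wap-Tbrg4 mice; open symbols under the dotted line are genes listed at 0. *Tbrg4* is at 314.7 and 291.5 for exons, and the highest relative, *Fastk*, at 9.6 and 5.4.

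Within each mouse, *Tbrg4* exceeded the highest relative, *Fastk*, 32.8-fold in mouse 1 and 54.0-fold in mouse 2. It exceeded *Fastkd2* 82.8-fold and 59.5-fold, *Fastkd1* 157-fold and 97.2-fold, and *Fastkd3* 225-fold and 117-fold in exon FPKM. On the log2 scale the ratio to *Fastk* was 5.39 ± 0.51 (SD, n = 2) and that to *Fastkd3* was 7.34 ± 0.67. The ratio to the median of the 5 relatives, which is *Fastkd1* in both mice, was 6.95 ± 0.49. That median counts the listed 0 of *Fastkd5*, and over the 4 relatives above 0 the ratio to the median was 6.48 ± 0.39. Each of these ratios was many times the spread between the mice. With 2 mice, an exact two-sided sign-flip permutation test cannot give a p below 0.5, so no test was made. Of the expressed genes, 32.5% were above every FASTK relative in both mice, so that standing above this family is common and the position of *Tbrg4* is better described by its percentile. Rescaling the libraries leaves ratios within a mouse as they are, since both genes are multiplied by the same number.

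Among the relatives, the differences were smaller. *Fastk* exceeded *Fastkd2* by 1.34 in mouse 1 but by 0.14 in mouse 2 on the log2 scale, a mean of 0.74 ± 0.85 (SD, n = 2), so this pair did not differ beyond the spread between the mice. *Fastkd2* was above *Fastkd1* by 0.82 ± 0.15 and *Fastkd1* above *Fastkd3* by 0.39 ± 0.18, which is larger than that spread.

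Intronic reads come largely from RNA that is not yet spliced, and *Tbrg4* was again above these 4 relatives. Its intron FPKM was 43.4 in mouse 1 and 51.4 in mouse 2, a mean of 47.4 ± 5.66 (SD, n = 2), and 10 other expressed genes were at least as high in both mice. *Fastk* had 0.5 and 1.2, and *Fastkd3* had 0.2 and 0.4. *Fastkd2* had 0.1 and 0.2, and *Fastkd1* had 0.1 in both mice. The relatives were near the intron FPKM of the median expressed gene, which was 0.4 in both mice, or below it, except *Fastk* in mouse 2.

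Values this low carry few digits, and a listed 0.1 can stand for anything from 0.05 to 0.15. *Tbrg4* exceeded *Fastk* 86.8-fold in mouse 1 and 42.8-fold in mouse 2 in intron FPKM. Rounding alone allows 78.8-fold to 96.6-fold and 41.1-fold to 44.7-fold. The ratio to *Fastkd3* was 217-fold and 129-fold (173-fold to 290-fold, and 114-fold to 147-fold under rounding). For *Fastkd1* the listed ratio in mouse 1 was 434-fold, but rounding allows 289-fold to 869-fold, so its size is poorly fixed. *Fastkd2* and *Fastkd1* could not be put in order from their introns, as their values overlap under rounding in both mice. The intron FPKM of 10.3% of expressed genes was above every relative in both mice.

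The ratio of intron to exon FPKM sets mostly unspliced against mostly mature RNA of the same gene. The scale of a library cancels in it only if exon and intron FPKM were scaled by the same library total, which the sources used here do not state, and the shares of fragments given further on assume the same. It was 0.138 in mouse 1 and 0.176 in mouse 2 for *Tbrg4*, a mean of 0.157 ± 0.0272 (SD, n = 2). *Fastkd3* had 0.143 and 0.160 (0.151 ± 0.0121), so that both genes had overlapping values despite an exon FPKM that differs 225-fold and 117-fold. *Fastkd1* had 0.05 and 0.0333, and *Fastkd2* had 0.0263 and 0.0408. Their ratios were lower than that of *Tbrg4* in both mice, also over the range that rounding allows (up to 0.0769 for *Fastkd1*).

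*Fastk* had an intron to exon ratio of 0.0521 in mouse 1 and 0.222 in mouse 2, below *Tbrg4* in one mouse and above it in the other. Its exon FPKM fell between the mice while its intron FPKM was higher in mouse 2. Among 9137 expressed genes with values above 0 for exons and introns in both mice, the median ratio was 0.0694 and the quartiles were 0.0393 and 0.118. *Tbrg4* was at the 84.6th percentile of these genes, *Fastkd3* at the 83.6th, *Fastk* at the 80.4th, *Fastkd1* at the 27.2nd and *Fastkd2* at the 19.8th. The gene with the highest level of these 5 therefore did not stand apart from *Fastkd3* and *Fastk* in this ratio.

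**Figure D2:**
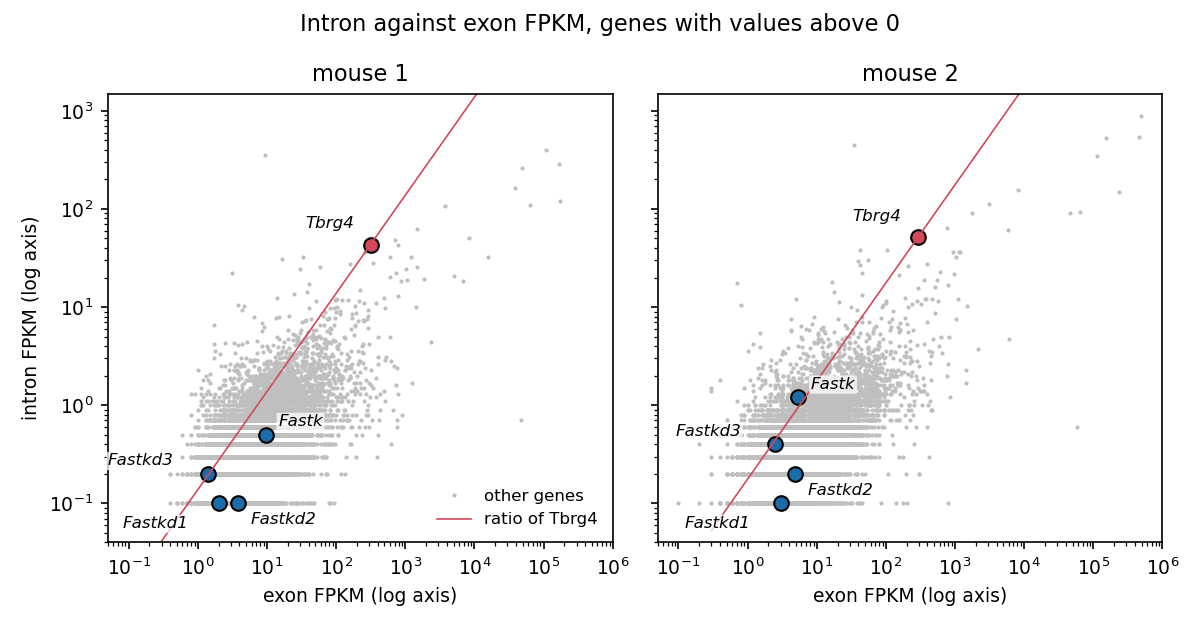
Intron FPKM against exon FPKM, both on log axes, in mouse 1 (left) and mouse 2 (right); grey points are expressed genes, blue points 4 FASTK relatives, and the line marks the intron to exon ratio of *Tbrg4* (0.138 and 0.176). *Fastkd3* lies on or close to this line in both mice, *Fastkd1* and *Fastkd2* lie below it, and *Fastk* changes sides.

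FPKM divide by length, and intron length differs within the family. Curated RefSeq transcripts give *Tbrg4* 3446 bp of exon and 7024 bp of intron. Multiplied by these lengths, *Tbrg4* had 1084 exon and 305 intron fragments in mouse 1, and 1005 and 361 in mouse 2. These are on the library scale of the FPKM. The authors took exons from UCSC known genes, whose lengths were not used here, so these numbers and the shares below are estimates. With RefSeq lengths, introns held 21.9% and 26.4% of the *Tbrg4* fragments. *Fastkd1*, with 22927 bp of intron, had an intron share of 28.6% and 21.1%, and *Fastkd3* of 27.2% and 29.5%. *Fastkd2* had 13.8% and 19.9%, and *Fastk* 6.25% and 22.2%. Lengths from GENCODE M21 in place of RefSeq lowered the mean share of *Fastkd1* from 24.9% to 12.9%, that of *Fastkd3* from 28.3% to 12.5%, that of *Fastkd2* from 16.9% to 9.37% and that of *Fastk* from 14.2% to 7.02%. The share of *Tbrg4* went from 24.2% to 22.3%. *Tbrg4* thus had the highest mean share of the 5 genes with GENCODE lengths but was below *Fastkd1* and *Fastkd3* with RefSeq lengths, so the order depends on the gene model. GENCODE also places 2 small RNA genes, *Gm24313* and *Snora5c*, within *Tbrg4* (269 bp together) and 1, *Gm22333* (101 bp), within its longer model of *Fastk*. Their part in the intron values was not tested.

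The 2 mice have the same genotype, and on the deposited scale *Tbrg4* differed least between them of the 5 members above 0. The log2 ratio of FPKM + 1 in mouse 2 to mouse 1 was -0.11 for *Tbrg4*, -0.73 for *Fastk*, 0.30 for *Fastkd2*, 0.42 for *Fastkd1* and 0.54 for *Fastkd3*. On this scale none of these 5 members was more than 2-fold apart between the mice, compared with 5.9% of expressed genes. Over all expressed genes the median ratio was -0.08 and the quartiles were -0.43 and 0.23. The part of the library scaling in this median was not tested. Scaling each mouse to the same summed exon FPKM, where a few milk protein genes weigh most, moved that median to -0.90 and made all 5 ratios negative. *Tbrg4* then had -1.17, *Fastk* -1.61, *Fastkd2* -0.54, *Fastkd1* -0.32 and *Fastkd3* -0.14. On that scale 2 members, *Tbrg4* and *Fastk*, were more than 2-fold apart, as were 42.6% of expressed genes, and *Tbrg4* was no longer the member that differed least. Relative to the median of expressed genes on that scale, *Tbrg4* had -0.27 and *Fastk* -0.71, while *Fastkd2* (0.36), *Fastkd1* (0.58) and *Fastkd3* (0.76) were above it.

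The difference between the mice moved with base composition. Across 9725 expressed genes with RefSeq exons, the log2 ratio had a Spearman's rho of -0.66 with exon GC content, given as a description over genes that share the same 2 libraries. *Fastk* had the most GC-rich exons of the family (59.2%) and the lowest ratio, and *Fastkd2* (42.5%) and *Fastkd1* (42.7%) had the least. After the trend with GC content was removed, *Fastk* had -0.03, *Fastkd2* 0.02 and *Fastkd1* 0.15, while *Tbrg4* (55.9% GC) had 0.33 and *Fastkd3* (49.5% GC) had 0.58. The sign for *Tbrg4* thus turned with this correction, and after it *Fastk*, *Fastkd1* and *Fastkd2* differed less between the mice than *Tbrg4*. The fitted trend was -0.70 at the GC content of *Fastk* and 0.27 at that of *Fastkd2*. Ratios between members within a mouse, given above, and their spread between the mice were not corrected for this trend. The part of GC content in these differences and in that spread was not tested further.

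**Figure D3:**
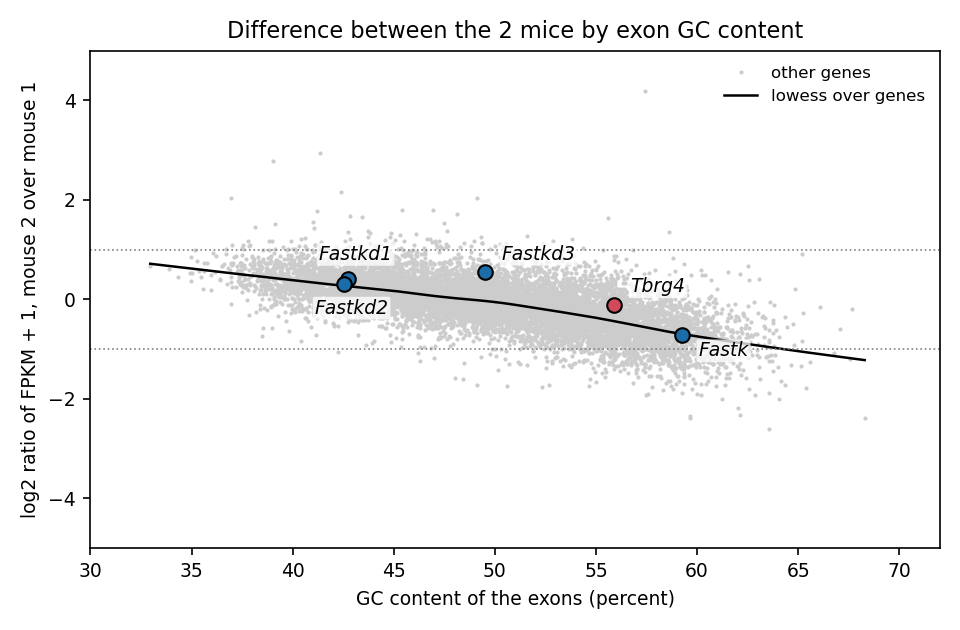
Log2 ratio of exon FPKM + 1 in mouse 2 to mouse 1 against the GC content of the exons in percent; grey points are expressed genes, the black line is a lowess fit over genes and dotted lines mark a 2-fold difference. *Fastk*, *Fastkd1* and *Fastkd2* lie near the fit, *Tbrg4* and *Fastkd3* 0.33 and 0.58 above it.

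*Tbrg4* was also set beside a list of other nuclear genes, called the mitochondrial RNA list. Most, but not all, of its genes transcribe, cut, modify, stabilize or degrade mitochondrial RNA. Of its 40 genes, 39 were found among the listed genes. All 39, *Polrmt* at a listed 0 included, were below *Tbrg4* in both mice, for exons and for introns. The same held for 99.2% of the other expressed genes in exons and 99.9% in introns, so this is nothing particular to the list. Their median exon FPKM was 4.8 in mouse 1 and 4.2 in mouse 2, close to the levels of the FASTK relatives. Of the 34 genes of the list that were expressed, 6 were above every relative in both mice, compared with 32.5% of all expressed genes.

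The highest of the list was *Hsd17b10*, a subunit of mitochondrial RNase P, with an exon FPKM of 46.3 in mouse 1 and 44.3 in mouse 2. *Tbrg4* exceeded it 6.80-fold and 6.58-fold. *Rexo2*, an exonuclease that degrades short RNAs, had 36.9 and 50.9, and *Grsf1*, an RNA granule protein, had 25.1 and 30. *Tbrg4* was 12.5-fold and 9.72-fold above *Grsf1*.

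*Lrpprc* and *Slirp* encode the complex that binds and stabilizes most mitochondrial mRNAs, a task related to that of TBRG4. *Lrpprc* had an exon FPKM of 9.2 and 8.0, so that *Tbrg4* was 34.2-fold and 36.4-fold higher. *Slirp* had 8.9 and 17.2, which leaves *Tbrg4* 35.4-fold and 16.9-fold higher. Both were within the range of the list and far below *Tbrg4*.

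At the low end, the pseudouridine synthase gene *Rpusd3* had an exon FPKM of 1.3 and 0.1, and *Mterf1b*, a copy of the transcription termination factor gene, had 0.1 and 0.7. *Mterf1b* has the close paralog *Mterf1a* (0.6 and 1.3), and reads that fit both may not be assigned reliably. *Polrmt*, the mitochondrial RNA polymerase that every cell uses, was listed at 0 in both mice, and like *Fastkd5* it is reported as listed only. Of the 34 genes of the list that were expressed, 1 was more than 2-fold apart between the mice, compared with 5.9% of all expressed genes. The 13 mitochondrially encoded mRNAs, the targets of this family, were looked for by symbol, and none was found among the listed genes.

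**Figure D4:**
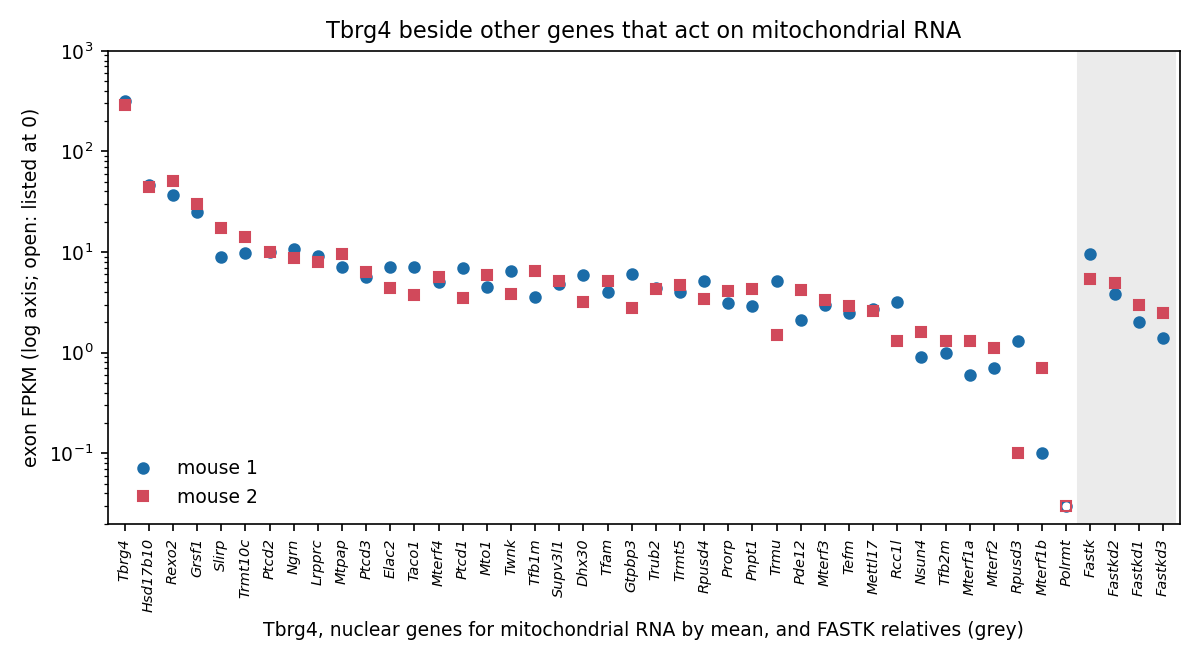
Exon FPKM on a log axis of *Tbrg4* (left), the 39 listed genes of the mitochondrial RNA list in order of their mean, and 4 FASTK relatives (grey area), 1 point for each of the 2 mice; open symbols are listed at 0. *Tbrg4* lies above all of them, and the next, *Hsd17b10*, is at 46.3 and 44.3.

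The genes nearest to *Tbrg4* by level were not from its family, which follows from the far lower levels of its relatives. By the distance over log2(FPKM + 0.1) of exons and introns in both mice (4 values), the nearest expressed gene was *Slc28a3*, a nucleoside transporter, at a distance of 1.07. It had an exon FPKM of 262.8 and 393.8 and an intron FPKM of 36.6 and 27.4. *Xdh* (1.94), a protein of the milk fat globule, *Xbp1* (1.95), a transcription factor of the unfolded protein response, *Irx2* (1.98), a homeobox gene, and *Fasn* (2.0), the fatty acid synthase, followed. Of these 5, *Xdh*, *Xbp1* (346.5 and 508.5) and *Fasn* exceeded *Tbrg4* in exon FPKM in both mice, *Irx2* was below it in both, and *Slc28a3* was below it in mouse 1 and above it in mouse 2.

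*Wap*, which lends its regulatory region to the fused allele, had an exon FPKM 550-fold and 805-fold that of *Tbrg4*, but its intron FPKM was 121.6 and 148.1. The fused allele lacks most of *Wap*, so the *Wap* values come mainly from the wt allele, while those of *Tbrg4* sum both alleles. *Glycam1*, a secreted milk protein gene, exceeded *Tbrg4* 151-fold and 200-fold in exons and had an intron FPKM of 0.7 and 0.6, below *Tbrg4* introns in both mice. *Tbrg4* thus lay between its relatives and the milk protein genes in exons, and above *Glycam1* in introns.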

How the data were processed

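Exon and intron FPKM of 2 WT_wTbrg4 samples at L10 were used as deposited. The authors prepared stranded total RNA libraries, aligned reads with STAR (mm10), merged exons per UCSC known gene, counted by HTSeq and derived FPKM with DESeq2; tool versions are not given in the sources used here. Of 20550 genes, 35 without a usable symbol were left out. ChIP-seq samples of the series are not analysed here. Ratios within a mouse used no pseudocount, ratios between mice used FPKM + 1, and rounding bounds assumed ± 0.05. Named genes are the members, *Wap*, *Glycam1*, the top 3, bottom 3, *Lrpprc* and *Slirp* of the mitochondrial RNA list, and the 5 genes nearest to *Tbrg4*; *Ubox5*, *Mterf1a* and the cell type markers were added with values known. Members and lists were chosen with earlier results of these data known. RefSeq GRCm38.p6 gave lengths, GC content and promoters. A lowess fit over 30% of genes removed the GC trend and was tested on simulated data. Software was minimap2 2.31 and Python 3.11.15 with pandas 2.3.3, numpy 2.4.6, statsmodels 0.14.6, scipy 1.17.1 and matplotlib 3.10.9.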

Additional observations from a re-analysis of the deposited data

How the results depend on the processing

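The depth is unknown and values carry 1 decimal, so intron ratios to the relatives are the least certain. When both mice were brought to a summed exon FPKM of 1000000, *Tbrg4* had an exon FPKM of 266 and an intron FPKM of 39.8. The log2 ratio of *Tbrg4* to the median relative became 6.45 for exons with FPKM + 1 and 5.39 against the highest relative. For introns, 8.38 became 7.59 with FPKM + 0.1, 5.39 with FPKM + 1, 5.93 against the highest relative, 7.50 against the mean of the relatives, 7.80 against the median of the 4 relatives above 0 (chosen after seeing the data) and 9.09 at the upper end of rounding. In all of these *Tbrg4* stayed above the reference it was set against. The count of 581 genes that differed over 2-fold from mouse to mouse became 231 when an exon FPKM of 10 was required, 1092 with FPKM + 0.1 and 4193 after scaling to the summed exon FPKM (added after seeing the data). Of 114 alternatives in all, 72 moved their value by no more than the spread between the mice or the tolerance set for it. These 72 include every alternative that left out 1 of 2 mice. Such a value always stays within 1 SD of the mean and shows no stability, so the 72 is no measure of stability. No paired analysis was possible because RNA-seq covers 1 genotype. The cause of these changes was not tested.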
